A study of Mus musculus with 15 samples.

Results

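The oxygen sensing genes described here are 9 of the 32434 entries of an RNA-seq table of mouse myeloma cell lines, taken by name: the HIF prolyl hydroxylases Egln1, Egln2 and Egln3 (EGLN1, EGLN2 and EGLN3 in the table), the asparaginyl hydroxylase Hif1an (HIF1AN), the ubiquitin ligase subunit Vhl (VHL), the HIF subunits Hif1a, Epas1 and Arnt (HIF1A, EPAS1 and ARNT), and the HIF target Bnip3 (BNIP3). The set was chosen by how its transcript levels and line contrasts looked in these same libraries, so the levels are given as a description, and no p-value is given for them. RNA was sequenced from 5 lines, IL6Myc-1 to IL6Myc-5, each with 3 technical replicate libraries, 15 in all. Every line carried the genotype IL6Myc and comes from the IL6Myc mouse, which has a working immune system and develops multiple myeloma, a malignancy of plasma cells. No treatment, oxygen level, normal plasma cell or untransformed control entered the comparison, and the sources used here give neither the age of the mice nor the promoters of the transgenes. Each line is a single unit, so the spread between its libraries is technical, and p-values below measure lines against that spread only.

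In cells with enough oxygen, the enzymes encoded by Egln1, Egln2 and Egln3 (PHD2, PHD1 and PHD3) hydroxylate prolines of the HIF alpha subunits. Vhl, as part of a ubiquitin ligase, then binds the alpha subunit and marks it for destruction, while Hif1an (FIH) hydroxylates an asparagine and blocks the recruitment of coactivators. When oxygen is scarce, the alpha subunit (HIF-1 alpha from Hif1a or HIF-2 alpha from Epas1) persists, pairs with the constitutive partner Arnt (HIF-1 beta) and switches on genes of glycolysis, angiogenesis and mitophagy, among them Bnip3. Egln1 and Egln3 are themselves known HIF targets and form a feedback loop. The protein level of the alpha subunits is set mostly after transcription, so a transcript level says little about HIF activity, and bone marrow, the home of plasma cells, is a tissue of low oxygen.

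The promoters of Egln1, Egln3 and Bnip3 are shown because these 3 genes are known HIF targets whose transcripts nevertheless followed different patterns over the lines. HIF binds a core of ACGTG or GCGTG. The sequences cover 250 bases before to 50 bases after the start of each gene, from RefSeq on build GRCm38.p6, at chr8:124949205-124949504, chr12:54203825-54204124 and chr7:138909457-138909756, and all 3 lie on the minus strand. Capitals mark each match to ACGTG or GCGTG on either strand, so that CACGT and CACGC are matches on the opposite strand.
Egln1: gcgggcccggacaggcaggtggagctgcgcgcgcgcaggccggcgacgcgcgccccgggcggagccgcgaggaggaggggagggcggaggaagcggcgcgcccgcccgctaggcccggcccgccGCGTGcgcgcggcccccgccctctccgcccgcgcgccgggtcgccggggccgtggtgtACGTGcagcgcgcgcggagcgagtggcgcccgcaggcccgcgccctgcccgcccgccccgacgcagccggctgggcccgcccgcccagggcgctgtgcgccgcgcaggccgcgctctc
Egln3: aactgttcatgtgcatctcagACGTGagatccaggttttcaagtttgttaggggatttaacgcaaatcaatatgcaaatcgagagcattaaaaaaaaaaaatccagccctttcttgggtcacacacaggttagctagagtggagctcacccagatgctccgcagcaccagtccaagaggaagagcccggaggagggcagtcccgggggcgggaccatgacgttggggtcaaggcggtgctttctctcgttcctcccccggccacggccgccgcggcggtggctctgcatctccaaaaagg
Bnip3: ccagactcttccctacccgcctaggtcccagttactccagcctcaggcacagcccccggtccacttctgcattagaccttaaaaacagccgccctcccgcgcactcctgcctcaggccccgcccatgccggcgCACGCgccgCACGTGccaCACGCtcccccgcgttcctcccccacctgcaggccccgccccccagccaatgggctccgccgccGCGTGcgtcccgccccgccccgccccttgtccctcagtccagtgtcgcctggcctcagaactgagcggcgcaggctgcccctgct
Egln1 held 2 matches, at positions -126 and -68 (the first base of each match, counted from the start site). Egln3 held 1, at -229. Bnip3 held 5, at -117, -108, -107, -99 and -35, of which those at -108 and -107 overlap, because CACGTG reads as a match on both strands. At least 1 match was found in 43.8% of all 32851 promoters in the RefSeq table, and 5 or more in 1.66%. Of the 8 oxygen sensing genes with a promoter in that table, 6 (75%) held a match in at least 1 promoter, beside 67.5% of the tested genes with a promoter. Hif1a held 3 and Arnt 1. Egln2 has 2 promoters in the table, with 6 and 1 matches. Vhl and Hif1an held none. Epas1 has no entry in the promoter table. A match is a stretch of letters and was not tested as a binding site.

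Levels are CPM, counts brought to a common library size, and each mean ± SD is over 3 libraries. The libraries held 19068543 to 41165599 estimated counts each. A level that 3 counts over a line would give, 0.0332 to 0.0527 CPM, is used as the limit where a line had no counts. Such limits cover counting error only. Gene lengths were not available for these values, so levels are compared between lines and never between genes. All 7 plasma cell markers examined, among them Sdc1, Xbp1, Irf4, Prdm1 and Jchain, were at 1 CPM or more in every line. Erythroid markers summed to at most 0.744 CPM and stromal markers to at most 1.52 CPM in any library. Of 7 myeloid markers, 5 stayed under 1 CPM in every line, with S100a8 at 0 counts, while C1qb stood at 490 ± 25.9 CPM in IL6Myc-4 against 66.9 to 113 in the other lines and Itgam at 11.6 ± 0.226 CPM in IL6Myc-2, with 1.01 to 3.65 elsewhere. Of 6 endothelial markers, Pecam1 alone exceeded 1 CPM, and Cdh5, Kdr and Emcn had 0 counts in all 15 libraries. T and NK cell markers summed to 1.97 CPM in the lowest library, of IL6Myc-5, and to 29.0 in the highest, of IL6Myc-4, with Gzmb at 0 counts. Cd3d was highest in IL6Myc-2 (7.61 ± 1.02 CPM, with 0.0954 to 3.42 elsewhere) and Cd3g in IL6Myc-4 (22.0 ± 0.469 CPM, with 1.43 to 12.5 elsewhere), while Cd3e stayed at 4 counts or fewer in each line.

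Among the hydroxylases, Egln1 divided the panel. In IL6Myc-2 the 3 libraries read 24.8, 26.2 and 25.3 CPM (25.4 ± 0.717, 1448 counts over the line). In each of the 12 libraries of the other 4 lines Egln1 was listed at 0 counts. Against the highest limit among those lines, 0.0427 CPM in IL6Myc-5, the level in IL6Myc-2 was at least 596-fold higher. PHD2, the product of Egln1, is the hydroxylase held to set HIF-1 alpha levels in most tissues, and a row at 0 was read here only as an entry without assigned counts. Of the 3564 stretches of 31 bases in the annotated Egln1 transcripts, 0 were shared with another gene on the same strand. The long noncoding gene Gm46060, which overlaps Egln1, had no entry of that name among the 32434. The myeloid marker Itgam and the T cell marker Cd3d were also highest in IL6Myc-2, where Lyz2, Cd14 and Cd8a had 0 counts, and their part in the Egln1 difference was not tested.

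Of the nearest protein-coding genes on each side of Egln1, listed next, 4 passed the filter and had counts in every library. In RefSeq's gene order on GRCm38.p6 the neighbours are Gnpat, Exoc8 and Sprtn on one side and Tsnax, Disc1 and Sipa1l2 on the other. Gnpat, an enzyme of ether lipid synthesis, was lowest in IL6Myc-1 (34.5 ± 2.97 CPM) and highest in IL6Myc-5 (66.7 ± 4.17 CPM). Sprtn, a protease that clears DNA-protein crosslinks, ranged from 27.7 ± 0.805 to 42.1 ± 0.757 CPM, and Tsnax from 51.0 ± 0.913 to 60.6 ± 2.55 CPM. Exoc8 was lowest in IL6Myc-2 (9.04 ± 1.04 CPM) and highest in IL6Myc-3 (12.2 ± 0.899 CPM). The highest of the lines exceeded the lowest 1.93-fold for Gnpat, 1.35-fold for Exoc8, 1.52-fold for Sprtn and 1.19-fold for Tsnax, so that 0 of the 4 reached the log2 size of 1 needed for a call, with edgeR or with DESeq2. Their smaller differences among the lines had an unadjusted p under 0.05 for all 4 (F-test of edgeR). Nothing is read from this, as 91.7% of all tested genes had an adjusted p under 0.05 in that test, at any size. Disc1 (at most 0.249 CPM) and Sipa1l2 (1 count, in IL6Myc-2) were too low to be tested. Farther out, some tested genes were nearly confined to a single line. Pcnx2, the next tested gene after Tsnax, read 8.34 ± 1.05 CPM in IL6Myc-1 and at most 0.0703 in the other lines. Agt, on the Gnpat side, read 5.18 ± 0.147 CPM in IL6Myc-4 and at most 0.0433 in the other lines.

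**Figure D1:**
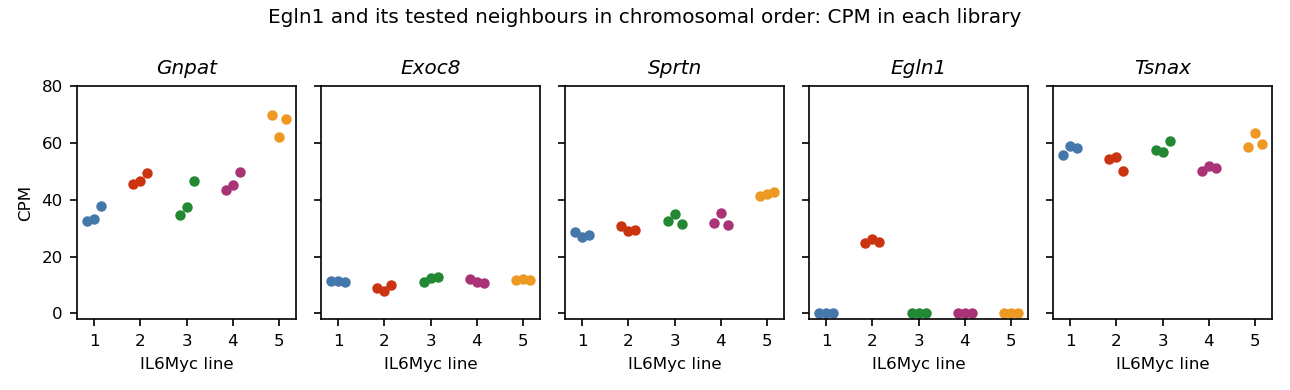
CPM in each library (points) of the 5 lines (x axis, numbered 1 to 5) for Egln1 and 4 tested genes near it, in chromosomal order. Egln1 sits near 25.4 CPM in IL6Myc-2 and at 0 in the 12 other libraries, while each of these 4 genes has counts in all 15.

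The all-or-none pattern of Egln1 was counted over the table by a rule written for this gene, which was picked with its values known. By that rule, 3 of the 11773 tested genes (0.0255%) were at 0 in all 12 libraries of 4 lines and at 5 CPM or more in the fifth. All 3 had their counts in IL6Myc-2: Egln1 itself, the MHC class II chain H2-Ab1 and the homeobox gene Six2. The rule asks for exact zeros and leaves out genes with a few counts elsewhere, such as Serpina3g and Unc5b below. Nothing is read from this count about Egln1. Over the 15 libraries, the genes whose log2(CPM + 1) followed Egln1 most closely were Serpina3g, a serine protease inhibitor (Pearson r = 0.9998), Unc5b, a netrin receptor (r = 0.9997), and Six2 (r = 0.9997). Serpina3g was at 34.7 ± 1.64 CPM in IL6Myc-2 with at most 1 count in any other line. Unc5b was at 34.6 ± 0.519 CPM there with at most 4 counts in any other line, and Six2 at 10.9 ± 0.936 CPM with 0 counts elsewhere. These coefficients describe 5 lines, since the 3 libraries of a line share their cells, and they rest on the contrast of IL6Myc-2 with the rest.

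Egln3 differed between all the lines, without overlap. In IL6Myc-3 its libraries read 11.4, 10.3 and 10.3 CPM (10.7 ± 0.628, 873 counts). In IL6Myc-2 they read 6.11, 5.14 and 5.34 CPM (5.53 ± 0.517, 316 counts). The libraries of these 2 lines did not overlap, and IL6Myc-3 was 1.93-fold higher. In IL6Myc-5 they read 0.955, 0.478 and 0.948 CPM (0.794 ± 0.274, 58 counts). IL6Myc-4 had 9 counts over its 3 libraries (0.107, 0.116 and 0.115 CPM), and IL6Myc-1 had 0. IL6Myc-3 was at least 321-fold above IL6Myc-1. PHD3 is known as the most strongly hypoxia-induced of the prolyl hydroxylases, and in IL6Myc-4 and IL6Myc-1 its counts were near or under the limit that depth sets. Among the genes with the most similar pattern were Manf, a stress-induced secreted factor of the endoplasmic reticulum (r = 0.986), and the collagen chaperone Serpinh1 (r = 0.9795). Serpinh1 stood at 17.4 ± 1.07 CPM in IL6Myc-3 and 4.64 ± 0.287 in IL6Myc-2, while the remaining lines had 0.0868 to 0.616. Manf varied far less, with 518 ± 21.5 CPM in IL6Myc-1 as its lowest and 730.04 ± 9.27 in IL6Myc-3 as its highest level.

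Egln2 was counted in every library and varied in a narrow range. It was lowest in IL6Myc-1 (32.3, 32.6 and 30.1 CPM, mean 31.6 ± 1.33) and highest in IL6Myc-3 (56.5, 60.9 and 63.6 CPM, mean 60.3 ± 3.59). IL6Myc-4 (43.0 ± 3.42 CPM) and IL6Myc-5 (46.6 ± 3.19 CPM) overlapped, and IL6Myc-2 lay above both at 52.9 ± 1.12 CPM. The range was 1.91-fold, or 0.93 on the log2 scale, just under the size of 1 that a call requires. Hif1an was highest in IL6Myc-1 (74.6 ± 0.936 CPM) and lowest in IL6Myc-2 (52.6 ± 0.923 CPM), with 57.4 ± 0.863 in IL6Myc-5, 60.6 ± 1.57 in IL6Myc-4 and 64.3 ± 2.40 in IL6Myc-3. Its libraries did not overlap between any lines next to each other in this order, yet the whole range was 1.42-fold. Thus IL6Myc-1, which had the most Hif1an, had the least Egln2 and no Egln1 or Egln3 counts.

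Vhl and Hif1a were the steadiest of the oxygen sensing genes. Vhl, the substrate receptor that hydroxylated HIF alpha binds, was lowest in IL6Myc-3 (16.9 ± 0.764 CPM) and highest in IL6Myc-1 (21.5 ± 1.35 CPM), a 1.27-fold range. IL6Myc-2 (17.7 ± 1.57 CPM), IL6Myc-5 (18.3 ± 0.362 CPM) and IL6Myc-4 (19.0 ± 2.29 CPM) lay between, and each line overlapped the next. Hif1a was at 28.3, 24.9 and 27.2 CPM in IL6Myc-2 (26.8 ± 1.73), below all libraries of the other lines. IL6Myc-4 (32.2 ± 2.47 CPM), IL6Myc-5 (33.4 ± 3.07 CPM), IL6Myc-3 (34.9 ± 1.41 CPM) and IL6Myc-1 (36.4 ± 2.33 CPM) overlapped in turn. The range was 1.36-fold. The line with Egln1 counts was therefore the line with the least Hif1a, by 0.35 ± 0.06 (SE) on the log2 scale against the mean of the other 4 lines. Epas1, the alpha subunit best known from endothelium and kidney, had 4 counts in all, 2, 2 and 0 in the 3 libraries of IL6Myc-3, and 0 in the other 12 libraries. It was not tested.

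Arnt stood apart in IL6Myc-5. Its libraries there read 177, 186 and 168 CPM (177 ± 8.75). In IL6Myc-1 they read 75.9, 71.3 and 75.1 CPM (74.1 ± 2.43) and in IL6Myc-2 59.5, 62.8 and 62.1 CPM (61.4 ± 1.75). In IL6Myc-3 they read 52.2, 56.0 and 50.9 CPM (53.0 ± 2.66) and in IL6Myc-4 53.0, 50.5 and 51.9 CPM (51.8 ± 1.23). IL6Myc-3 and IL6Myc-4 overlapped and the other steps did not. IL6Myc-5 was 2.39-fold above IL6Myc-1 and 3.42-fold above IL6Myc-4, and exceeded the mean of the other 4 lines by 1.57 ± 0.03 (SE) on the log2 scale. Arnt is the shared partner of both alpha subunits and of the aryl hydrocarbon receptor.

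Bnip3, which encodes a receptor that targets mitochondria for autophagy, split the lines into a high and a low set. It read 231, 229.7 and 226 CPM in IL6Myc-1 (229 ± 2.59) and 162, 172 and 167 CPM in IL6Myc-5 (167 ± 5.21). It read 59.7, 62.7 and 61.8 CPM in IL6Myc-2 (61.4 ± 1.53), 55.3, 57.9 and 52.2 CPM in IL6Myc-3 (55.1 ± 2.90) and 43.0, 46.8 and 45.0 CPM in IL6Myc-4 (44.9 ± 1.92). No lines overlapped. IL6Myc-1 exceeded IL6Myc-5 by 1.37-fold and IL6Myc-4 by 5.1-fold. Against the mean of the other 4 lines, Bnip3 was higher by 1.69 ± 0.03 (SE) on the log2 scale in IL6Myc-1 and by 1.12 ± 0.03 in IL6Myc-5, and it differed by -1.25 ± 0.04 in IL6Myc-4. Of the stretches of 31 bases in Bnip3 transcripts, 20.3% are shared with the near copies Gm14506, Gm16439, Gm6532 and Gm9419, so part of its level is uncertain. Gm14506 was at 0 counts in every line and the other 3 had no entry of that name among the 32434.

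**Figure D2:**
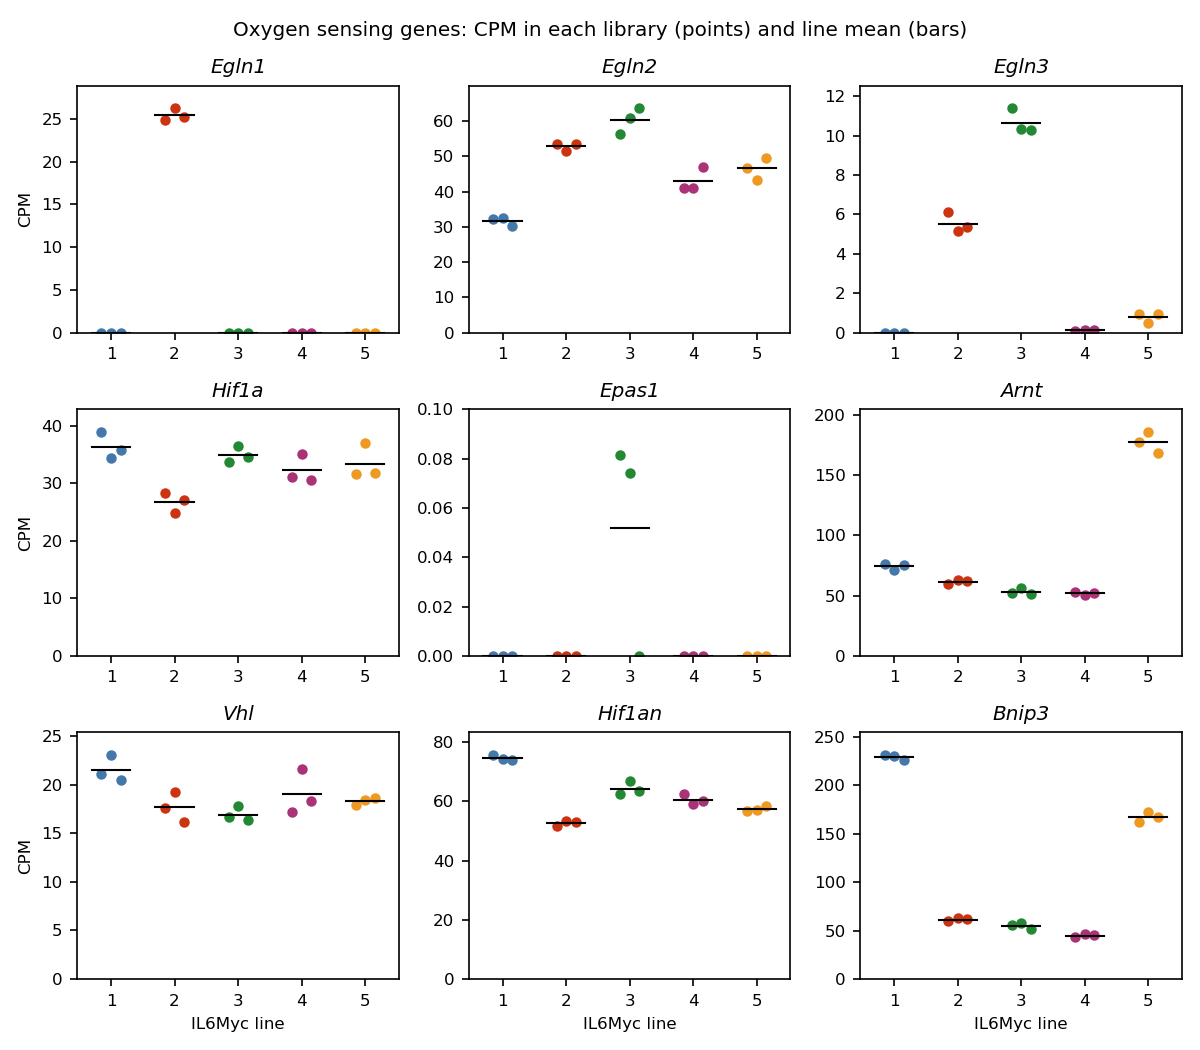
CPM of the 9 oxygen sensing genes in each library (points) and the mean of each line (bars, axes start at 0), with lines 1 to 5 on the x axis and a scale of its own for each gene. Egln1 has counts only in IL6Myc-2, Egln3 is highest in IL6Myc-3, Arnt in IL6Myc-5 and Bnip3 in IL6Myc-1, while Vhl and Hif1a range 1.27-fold and 1.36-fold over the lines.

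The HIF targets Egln1, Egln3 and Bnip3 thus peaked in different lines, IL6Myc-2, IL6Myc-3 and IL6Myc-1. The genes whose pattern was most like that of Bnip3 were the semaphorin and VEGF co-receptor Nrp2 (r = 0.9921), the ETS factor Etv4 (r = 0.9815) and the NAD-synthesis enzyme Nampt (r = 0.9617), over 15 libraries of 5 lines. Nrp2 read 64.6 ± 3.03 CPM in IL6Myc-1 and 54.7 ± 3.98 in IL6Myc-5, against 10.2 to 16.1 in the other lines. Etv4 read 15.6 ± 0.841 and 11.4 ± 0.653 CPM in that pair of lines, against 4.60 to 5.68. Bnip3l (NIX), the paralogue of Bnip3 and also a HIF target, had another order. It was highest in IL6Myc-4 (111 ± 5.14 CPM), where Bnip3 was lowest, and at 105 ± 10.8 in IL6Myc-2, 97.5 ± 1.77 in IL6Myc-5, 62.7 ± 3.38 in IL6Myc-1 and 49.7 ± 3.15 CPM in IL6Myc-3.

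By the rule applied to the whole table, a gene was called different among the lines at a Benjamini-Hochberg adjusted p under 0.05 in edgeR's F-test and a log2 difference of at least 1 between its highest and lowest line. By that rule 32.1% of the 11773 tested genes were called. Of the oxygen sensing genes, 8 passed the filter on low counts and 4 were called (Egln1, Egln3, Arnt and Bnip3). Nothing is read from this count or from the calls per line, which are set beside those of the whole table as a description, as these genes were picked with their values known. Egln1 passed the filter through IL6Myc-2 alone, the line where it is high, so its difference was fixed by the filter, and Egln3 reached 1 CPM in IL6Myc-2 and IL6Myc-3 alone. Closest to the size threshold were Egln2 on the lower side (0.93) and Arnt on the upper side (1.77). When a line was set against the other 4, the called genes were Bnip3, higher, and Egln3, lower, in IL6Myc-1 (of all tested genes, 4.39% were called higher and 8.11% lower there). In IL6Myc-2 they were Egln1 and Egln3, both higher (8.6% higher and 4.08% lower), and in IL6Myc-3 Egln3, higher (4.6% higher and 3.05% lower). The mean of logs behind these Egln3 calls includes IL6Myc-1, with 0 counts. In IL6Myc-4 the called gene was Bnip3, lower (5.28% higher and 4.37% lower), and in IL6Myc-5 they were Arnt and Bnip3, both higher (4.8% higher and 3.19% lower).

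The genes with the pattern most like that of Arnt were Ensa (r = 0.9877), Tars2 (r = 0.9873) and Setdb1 (r = 0.9851), over 15 libraries of 5 lines. All 3 lie within 10 tested protein-coding genes of Arnt on chromosome 3, and this led to a look at its neighbours, chosen after the values were seen. Of the 20 nearest tested protein-coding genes, 10 on each side, 12 were called higher in IL6Myc-5, beside 4.8% of all tested genes, by edgeR and by DESeq2 alike in number. The 12 include Ensa and Tars2, which had led to this look. None of the 20 was lower in IL6Myc-5 even at an unadjusted p under 0.05 in edgeR, and 19 were higher at that level. All 20 exceeded the mean of the other lines there, with a median log2 difference of 1.27 and a range of 0.12 to 2.36. In IL6Myc-1 to IL6Myc-4, 0 of the 20 were called higher by either tool, with 1, 1, 1 and 2 higher at an unadjusted p under 0.05 in edgeR. The share of all tested genes at that level in a single line is not given here, so nothing is read from the unadjusted counts. In IL6Myc-3, 2 of the 20 were called lower, against a mean that includes IL6Myc-5. On chromosome 3 as a whole, with Arnt and these neighbours included, 55 of 514 tested protein-coding genes (10.7%) were called higher in IL6Myc-5. The median log2 difference was -0.13.

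The unbroken stretch of called genes that holds Arnt runs over 5 genes, from Arnt through Ctss, Golph3l and Ensa to Mcl1. It is broken by Adamtsl4, at 6.65 ± 1.59 CPM in IL6Myc-5 and higher there by 0.57 ± 0.22 (SE) on the log2 scale. Past it, the remaining neighbours on that side, Ecm1, Tars2, Rprd2, Prpf3 and Mrps21, were all called higher, by 1.98 to 2.36. Mcl1, the BCL2 family member on which myeloma cells depend for survival, stood at 1905 ± 54.0 CPM in IL6Myc-5, against 463 to 646 in the other lines. It was higher by 1.75 ± 0.03 (SE) on the log2 scale (edgeR quasi-likelihood test, adjusted p = 8.54e-17). Ctss, the lysosomal protease cathepsin S, stood at 1416 ± 90.8 CPM against 235 to 576, higher by 2.04 ± 0.03 (adjusted p = 1.53e-17 in the same test). Tars2, the mitochondrial threonyl-tRNA synthetase, stood at 263 ± 12.5 CPM against 58.8 to 79.8, and the splicing factor Prpf3 at 173 ± 15.3 CPM against 33.8 to 42.0. In Mcl1, Ctss, Tars2 and Prpf3 the lowest library of IL6Myc-5 lay above the highest of the other 12.

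On the other side of Arnt the differences were smaller for the nearest genes. The histone methyltransferase Setdb1, next to Arnt, was higher by 0.73 ± 0.03 (SE) and Cers2, a ceramide synthase, by 0.41 ± 0.04 on the log2 scale, both short of the size for a call. Anxa9 differed by 0.12 ± 0.08 (adjusted p = 0.233). Farther out, Prune1 (1.02 ± 0.06), Lysmd1 (1.21 ± 0.06) and Scnm1 (1.33 ± 0.06) were called higher. Around the other 7 tested oxygen sensing genes, at most 3 of the 20 neighbours were called higher and at most 5 lower in any line. Of all tested genes, 4.39% to 8.6% were called higher and 3.05% to 8.11% lower, depending on the line. Of the 20 neighbours of Bnip3, 3 were called higher in IL6Myc-1, the line with the most Bnip3, beside 4.39% of all tested genes. There 16 lay above the mean of the other lines, with a median log2 difference of 0.43. At an unadjusted p under 0.05 in edgeR, 15 were higher. The share of all tested genes at that level in a single line is not given here, so nothing is read from such counts. In IL6Myc-5, the line with the next highest Bnip3 level, 0 of these 20 were called higher, and likewise 0 of 20 around Egln1 in IL6Myc-2 and around Egln3 in IL6Myc-3. At an unadjusted p under 0.05 in edgeR these last 3 counts were 3, 0 and 7, and DESeq2 also called 0 higher. Lower at that unadjusted level were 10, 10 and 3, of which 2, 0 and 0 were called lower. The median log2 differences of these 3 sets of neighbours were -0.161, -0.304 and 0.084.

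**Figure D3:**
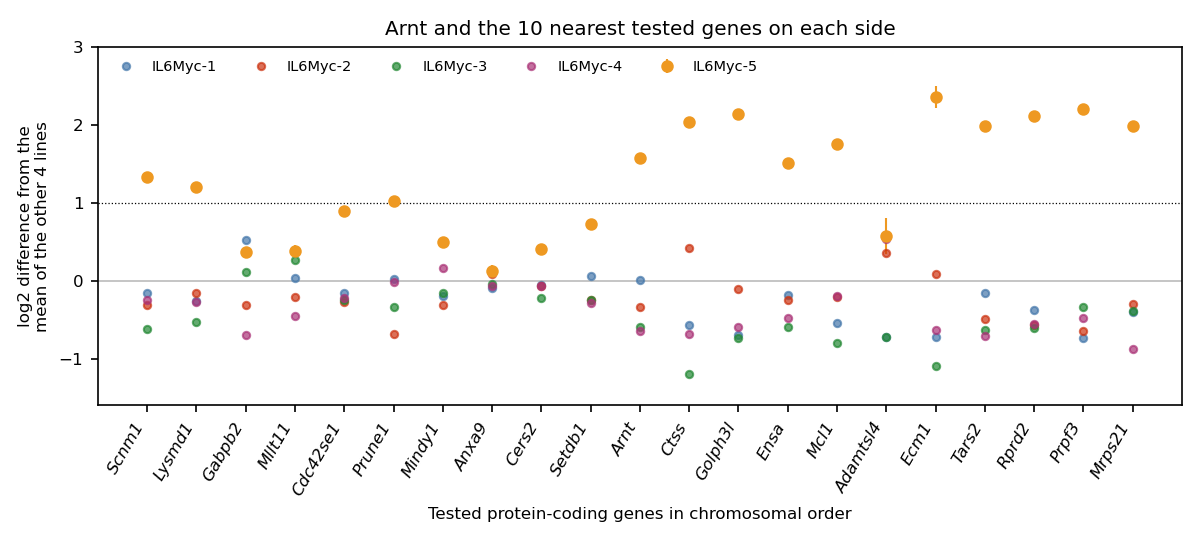
Log2 difference of each line from the mean of the other 4 (y axis) for Arnt and the 10 nearest tested protein-coding genes on each side in chromosomal order (x axis); the dotted line marks the size of 1 needed for a call. The IL6Myc-5 points lie above 0 for Arnt and all 20 neighbours and reach 2.36, while in the other lines no neighbour is called higher.

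The genes downstream of HIF were then counted, from lists put together with earlier results of these data known. Of 21 glycolytic HIF targets, all tested, 9 (42.9%) were called different among the lines. Of 26 other HIF targets, 18 were tested and 9 (50%) called. Together this gives 18 of 39 (46.2%), beside 32.1% of all tested genes, and the median log2 range was 0.952, beside 0.702. The other 8 did not pass the filter, among them Adm, Car9, Plod2, Lox, Edn1 and Vldlr, which were under 1 CPM in every line, and Epo, which was at 0 counts in all libraries. The lists were not tested as sets.

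IL6Myc-3, the line with the most Egln3 and Egln2, had the lowest level of most of the listed HIF targets. Its mean was the lowest of the lines for 26 of the 39 tested targets (66.7%), beside 14.8% of all tested genes, and the highest for 0, beside 14.9%. The share was the same among glycolytic targets (14 of 21) and the others (12 of 18). The 39 leave out Egln1, Egln3, Bnip3 and Cited2, which are also HIF targets. Of these, Egln3 was highest in IL6Myc-3, Egln1 in IL6Myc-2, Bnip3 in IL6Myc-1 and Cited2 in IL6Myc-5. The median log2 difference of IL6Myc-3 from the mean of the other lines was -0.502 over the 39 targets and 0.001 over all tested genes. In this line 4 of the 39 targets were called lower, Hk2, Aldoc, Ddit4 and Stc2, and 2 were called higher, Slc16a3 and Ndrg1. Of all tested genes, 3.05% were called lower and 4.6% higher there. Both targets called higher in IL6Myc-3 are set against a mean of logs that includes lines far lower. Slc16a3 was higher still in IL6Myc-2 and IL6Myc-5, and Ndrg1 in IL6Myc-1 and IL6Myc-5. IL6Myc-5 had the highest level of 11 targets and the lowest of 1, with a median difference of 0.336. IL6Myc-2, the line with Egln1 counts, had the highest level of 14 and the lowest of 1, with a median of 0.192. In IL6Myc-1, which had the most Bnip3, the median was -0.051, with 5 targets at their highest and 5 at their lowest there, and in IL6Myc-4 it was -0.108, with 9 and 6.

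**Figure D4:**
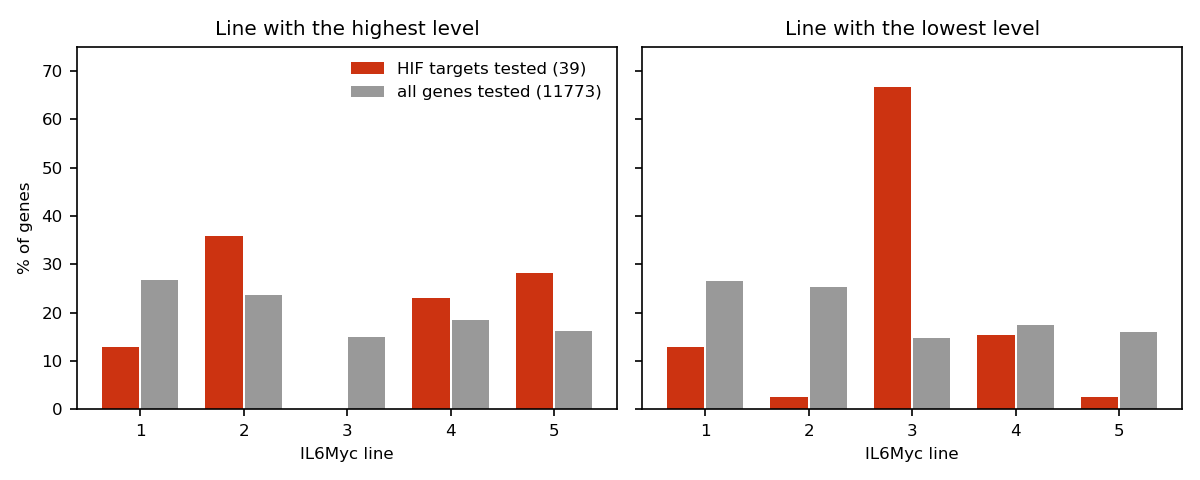
Percent of genes whose highest mean (left) or lowest mean (right) falls in each line (x axis, lines 1 to 5), for the 39 tested HIF targets and for all tested genes. IL6Myc-3 holds the lowest mean of 66.7% of the targets and of 14.8% of all tested genes.

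The steepest differences among the glycolytic targets were in Slc16a3, which encodes the lactate exporter MCT4. It stood at 63.2 ± 1.30 CPM in IL6Myc-2, 55.3 ± 9.69 in IL6Myc-5 and 6.74 ± 0.237 in IL6Myc-3. It had 2 counts in IL6Myc-1 and 0 in IL6Myc-4, so that IL6Myc-2 was at least 1682-fold above IL6Myc-4 (F-test of edgeR, adjusted p = 1.0e-14). The call of higher in IL6Myc-3 is against a mean of logs that includes these near-empty lines. Hk2, the hexokinase that opens glycolysis, stood at 243 ± 20.7 CPM in IL6Myc-4 against 31.4 to 56.1 in the others, higher by 2.40 ± 0.06 (SE) on the log2 scale (adjusted p = 2.03e-15, edgeR). The aldolase Aldoc stood at 122 ± 6.03 CPM in IL6Myc-4 and at 26.7 ± 0.777 in IL6Myc-3, its lowest level, with a log2 difference of 1.38 ± 0.04 and -1.36 ± 0.04 (adjusted p = 7.42e-15 and 3.35e-13, edgeR). IL6Myc-4 is also the line with the highest C1qb, Cd3g and Cd4 levels, and the part of these markers in the Hk2 and Aldoc differences was not tested. Of the other myeloid and T or NK cell markers in IL6Myc-4, Itgam stood at 2.98 ± 0.345 and Cd3d at 3.42 ± 0.133 CPM. Lyz2, Adgre1, S100a8 and Gzmb had 0 counts there, Csf1r and Cd3e 1 each, and Cd14 and Cd8a 2 each. The glycogen branching enzyme Gbe1 stood at 23.1 ± 3.37 CPM in IL6Myc-5 against 7.83 to 11.2 (log2 difference 1.36 ± 0.09, adjusted p = 4.45e-09, edgeR).

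Of the other targets, Ndrg1, a widely used hypoxia marker, had its highest level in IL6Myc-1 (8.41 ± 0.440 CPM), as Bnip3 did. It stood at 5.86 ± 0.609 CPM in IL6Myc-5 and 5.21 ± 0.159 in IL6Myc-3, but at 0.581 ± 0.243 in IL6Myc-2 and 0.264 ± 0.0790 in IL6Myc-4, a 31.9-fold range. The log2 difference from the other lines was 2.51 ± 0.12 in IL6Myc-1 (adjusted p = 2.11e-11, edgeR) and -3.70 ± 0.21 in IL6Myc-4 (2.52e-10). Car12, a cell surface carbonic anhydrase, was highest in IL6Myc-2 (9.99 ± 1.34 CPM) and lowest in IL6Myc-4 (0.331 ± 0.317 CPM), a 30.2-fold range. Stc2, a secreted glycoprotein of the stress response, read 49.2 ± 5.85 CPM in IL6Myc-5 and 48.9 ± 3.38 in IL6Myc-1 but 8.91 ± 1.27 in IL6Myc-3. Ddit4 (REDD1), an inhibitor of mTORC1, read 300.3 ± 7.50 CPM in IL6Myc-2 and 89.2 ± 4.79 in IL6Myc-3, where it differed by -1.25 ± 0.04 (adjusted p = 3.77e-13, edgeR). Vegfa, the angiogenic factor, read 223 ± 3.14 CPM in IL6Myc-2, 205 ± 4.44 in IL6Myc-1 and 188 ± 7.36 in IL6Myc-5, against 98.4 ± 3.44 in IL6Myc-4 and 93.1 ± 3.94 in IL6Myc-3.

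**Figure D5:**
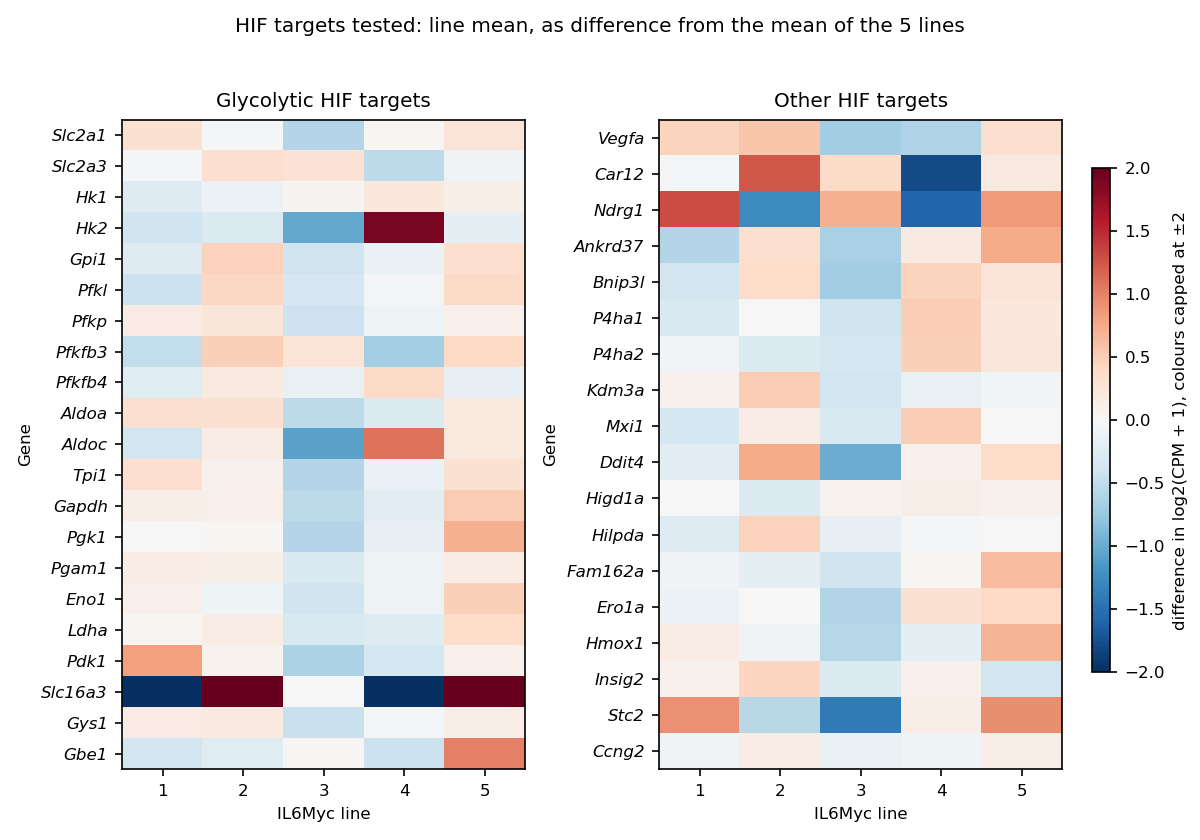
Line means of the 39 tested HIF targets (rows) in the 5 lines (columns), as the difference in log2(CPM + 1) from the mean of the lines, with colours capped at ±2. The IL6Myc-3 column is on the low side for most rows, and Slc16a3, Ndrg1 and Car12 show the widest spread.

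The partners of the oxygen sensing genes had a median log2 range of 0.583, beside 0.702 over all tested genes. Of 19 listed partners and members of the VHL complex, 16 were tested. Of these, 2 (12.5%) were called among the lines, Cited2 and Elob, beside 32.1% of all tested genes. The log2 difference of any of the 16 in a line against the other 4 stayed between -0.84 and 0.92. Cited2, a HIF target that competes with HIF alpha for the coactivators p300 and CBP, read 627 ± 8.55 CPM in IL6Myc-5, 479 ± 7.66 in IL6Myc-4, 305 ± 9.36 in IL6Myc-2, 305 ± 9.40 in IL6Myc-3 and 269 ± 12.5 in IL6Myc-1 (F-test adjusted p = 5.28e-14, edgeR). It was thus highest in the line with the most Arnt. Elob, the elongin B subunit of the VHL ligase, read 47.6 ± 3.39 CPM in IL6Myc-1, its lowest level, and 99.96 ± 3.93 in IL6Myc-2, its highest (log2 range 1.08, adjusted p = 3.54e-10, edgeR). Hif3a and Arnt2, the less common alpha and beta subunits, stayed under 1 CPM in every line and were not tested.

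Among 15 mitophagy genes other than Bnip3, 14 were tested and 4 (28.6%) were called among the lines, beside 32.1% of all tested genes. IL6Myc-1, the line with the most Bnip3, had the lowest level of 9 of the 14 (64.3%), beside 26.5% of all tested genes, with a median log2 difference of -0.429. It had the highest level of 3 of the 14 (21.4%, beside 26.7% of all tested genes): Bcl2l13, Phb2 and Gabarapl1. The call in that line was Map1lc3a, an autophagosome protein, at 3.94 ± 0.552 CPM against 5.85 to 14.1 in the other lines (log2 difference -1.29 ± 0.11, adjusted p = 2.85e-08, edgeR). Pink1, the kinase that starts the parkin pathway, stood at 16.2 ± 0.433 CPM in IL6Myc-1 and at 34.8 ± 1.56 in IL6Myc-2. Ulk1, the kinase that starts autophagy, was lowest in IL6Myc-1 (26.6 ± 2.70 CPM) and highest in IL6Myc-2 (53.5 ± 5.53 CPM), with a log2 range of 1.01. Its call was lost without replicate 1 of IL6Myc-1 (0.92) and without replicate 3 of IL6Myc-2 (0.93).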

How the data were processed

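RNA of 5 mouse myeloma cell lines was sequenced in 15 libraries made, per the labels' protocols, with the TruSeq stranded kit for total RNA. The submitters' processing notes name Trim Galore 0.4.0, DESeq2 and build GRCm39. The aligner, the quantifier and the annotation were not named in the sources used here. Although the deposited table is named for TPM, its values were taken as estimated counts: the deposited columns sum to 19068543 to 41165599, and 30.8% to 54.3% of values above 0 and under 1.5 lie within 0.02 of 1. They may carry a length correction by the quantifier. 1 further column of values, the mean of the libraries, was not used.

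Estimated counts were rounded and fitted with edgeR 4.0.16 (R 4.3.3) to all libraries, with TMM scaling (factors 0.848 to 1.08) and genes at 1 CPM or more in at least 3 libraries (11773). Lines were compared by the quasi-likelihood F-test and each against the mean of the other 4, with calls at a p under 0.05 after Benjamini-Hochberg adjustment and a log2 difference of at least 1. Fits were tested on simulated counts. The replicates of a line differed by more than sampling noise (chi-square per degree of freedom 4.51 to 19.6).

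The oxygen sensing genes, gene lists and markers were chosen with earlier results of these data known. Named genes are these 9, up to 4 called genes per list by the size of the difference, listed genes at 0 in a line and at 5 CPM or more in another, the 3 most similar genes (Pearson r on log2(CPM + 1)) of each called oxygen sensing gene, and the neighbours of Egln1. Vegfa, H2-Ab1 and the neighbours of Arnt were added after their values were seen. Not every gene that these rules name is reported here. Gene order, 99.2% of name matches and promoters are from RefSeq's GRCm38.p6 tables. Alternatives were RLE size factors, other filters, DESeq2 1.42.0, limma 3.58.1 on log2(CPM + 1) and log2(CPM + 5), a replicate block, and leaving out each library.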

Additional observations from a re-analysis of the deposited data

How the results depend on the processing

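Size factors by RLE, DESeq2 and leaving out any single library kept each count of calls over all genes and over the gene lists, and that of the Arnt neighbours in IL6Myc-5, within 1.5 times of its value. DESeq2 moved the Egln1 neighbours called lower in IL6Myc-1, IL6Myc-3 and IL6Myc-4 from 1 to 2 each and in IL6Myc-5 from 0 to 1. Direction was checked for the difference between highest and lowest line of the tested oxygen sensing genes and the genes taken by rule from the lists. None of these reversed in any alternative run that gave the difference. For Egln1, Egln3 and Slc16a3, at 0 counts in a line, DESeq2 and the replicate block did not give it. The other runs, apart from limma, set the highest line of these genes against the limit of 3 counts. Their direction could hardly reverse there, so nothing is read from it. Other reported values were not checked for direction. RLE moved the median of all genes by at most 0.0096 (log2). With the replicate number as a block, 3785 genes were called among the lines in place of 3783, and 4 oxygen sensing genes as before. The numbers do not pair the libraries: deviations of same-numbered libraries correlated at -0.0841 to 0.11, those of different numbers at -0.138 to 0.132. Leaving out single libraries gave 3650 to 3784 genes among the lines, and 3 to 4 oxygen sensing genes, since Egln1 misses the filter when IL6Myc-2 keeps 2 libraries. IL6Myc-3 had the lowest level of 26 HIF targets in every alternative, and the Arnt neighbours called higher in IL6Myc-5 were 10 to 12 (these 2 counts were chosen for checking after seeing the data).

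Counts moved with the filter and the pseudocount. With no filter, 977, 1758, 1100, 1054 and 983 genes were called higher in IL6Myc-1 to IL6Myc-5. With a filter of 5 CPM, 2449 were called among the lines, 282, 592, 273, 368 and 294 higher and 591, 252, 207, 277 and 201 lower, as fewer genes are tested. With limma on log2(CPM + 1), 294, 236, 360 and 276 were called higher in IL6Myc-1, IL6Myc-3, IL6Myc-4 and IL6Myc-5, and 630, 248, 190, 309 and 215 lower in the 5 lines. With limma on log2(CPM + 5), which shrinks differences of low genes, 1595 were called among the lines, 100, 327, 77, 172 and 104 higher and 266, 84, 73, 93 and 66 lower. This left 1 of the HIF partners, 2 mitophagy genes, and 1, 1, 3 and 1 HIF targets in IL6Myc-1, IL6Myc-2, IL6Myc-4 and IL6Myc-5. Elob (0.999), Pink1 (0.91) and Ulk1 (0.89) lost their calls there, and Ulk1 also with no filter (0.99) and with log2(CPM + 1) (0.98). Depth limits Egln3 in IL6Myc-1, IL6Myc-4 and IL6Myc-5 and Epas1 in all lines.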
